A study of Mus musculus with 6 samples.

Results

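MHC class II presentation is described here through 10 mouse genes: the classical chains H2-Aa, H2-Ab1 and H2-Eb1, the invariant chain Cd74, the peptide editor genes H2-DMa, H2-DMb1 and H2-DMb2, the genes H2-Oa and H2-Ob of its inhibitor, and the transactivator Ciita. They were chosen by symbol and not by a measured value, though with earlier results of these data known. All 10 were found among the 45706 gene identifiers of the count table. The study measured RNA of mouse bone marrow by sequencing, in 4 libraries of marrow cultured in conditioned medium and in 2 libraries labelled control medium (replicates 1 and 2). Conditioned medium is medium taken from cultures of other cells, here of the VpR clear cell renal cell carcinoma lines VpR83, VpR99, VpR126 and VpR2020, with 1 library for each line. The design text instead sets the cultures against marrow that was freshly isolated, and no medium stands in the headers of the control columns, so time in culture and medium cannot be told apart. Unexplained tags stand in the headers of VpR83 (Ctrl), VpR99 (T1) and VpR126 (LT2). The sources used here give no strain, age or culture time, and nothing says that the libraries stem from separate animals or dishes. The p-values therefore measure the spread between these libraries, which may be technical, and the 4 lines serve as replicates of conditioned medium.

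MHC class II molecules are surface heterodimers of an alpha and a beta chain that show peptides from endocytosed proteins to CD4 T cells. The chains assemble with the invariant chain, which blocks the groove and guides them to endosomes, where proteases cut it down to the fragment CLIP. The heterodimer H2-DM then exchanges CLIP for other peptides, and H2-O, a relative made mainly by B cells, inhibits H2-DM. CIITA is a main switch of the pathway, through factors bound at conserved promoter elements called the X and Y boxes. In marrow the pathway is known from B cells, dendritic cells and activated macrophages.

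Total counts ranged from 19412158 to 129120559 in the conditioned libraries, with the highest in VpR99, and were 27448621 and 18629708 in the controls. A count of 0 allows up to 3 counts, or 0.0232 to 0.161 CPM depending on the library, where CPM is a read count scaled to the depth of its library, and this covers counting error only. Levels below are CPM scaled by the trimmed mean of M values (TMM), and differences are log2 fold changes of conditioned over control medium. A gene was called higher or lower at an adjusted p below 0.05 in the quasi-likelihood test of edgeR, adjusted by Benjamini-Hochberg over the 15141 genes tested. The SE was taken as the size of the log2 fold change over the square root of the F statistic of edgeR. Of the genes tested, 42.2% were called, 22.5% higher and 19.7% lower. With control replicate 1 or 2 left out, the counts of higher genes were 1283 and 1299 in place of 3410, and those of lower genes were 918 and 991 in place of 2983.

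All 10 members passed the filter on low counts. The 3 members called lower were H2-DMb2, H2-Oa and H2-Ob, an H2-DM beta gene and both chains of H2-O, against a background of 19.7% of all genes. None was called higher by edgeR, none at an unadjusted p below 0.05, and none by limma voom, while DESeq2 called 0 at the adjusted level and 1 at the unadjusted level. The remaining 7 members, among them the classical chains, Cd74 and Ciita, were not called. The median log2 fold change was -0.45 over the members and -0.01 over all genes tested. In bulk RNA, fewer cells of a type and less RNA per cell cannot be told apart.

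**Figure D1:**
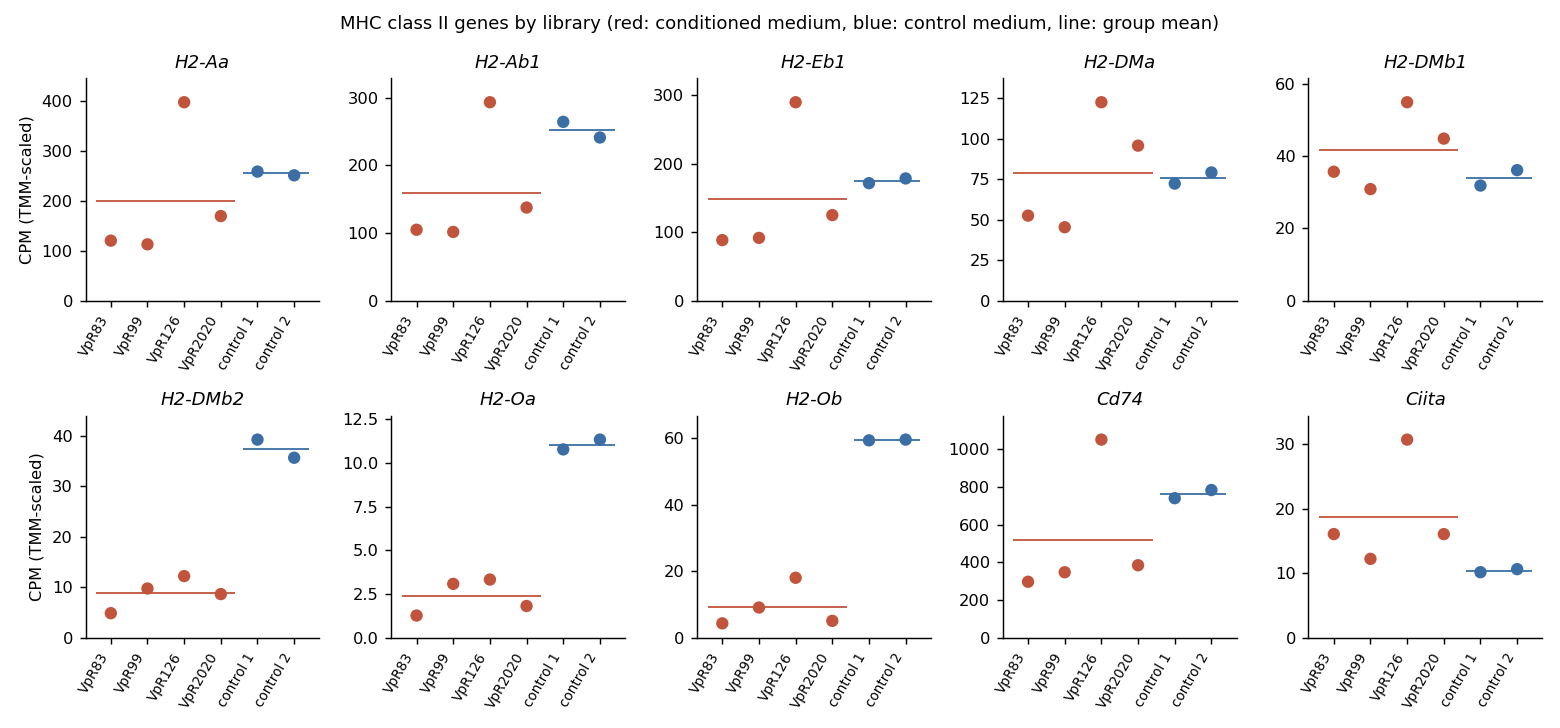
Level of each class II gene in each library, as TMM-scaled CPM on a linear axis from 0, with conditioned medium (red) left of control medium (blue), 1 point per library and a line at each group mean. H2-DMb2, H2-Oa and H2-Ob lie lower in all 4 conditioned libraries than in both controls, Ciita lies higher, and the other 6 genes overlap.

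The classical heterodimers are I-A, made of H2-Aa and H2-Ab1, and I-E, of which H2-Eb1 encodes the beta chain. H2-Aa (chr17:34282744-34287823, minus strand, GRCm38) had 120.0, 112.6, 396.9 and 169.2 CPM in VpR83, VpR99, VpR126 and VpR2020 medium, against 258.2 and 250.7 CPM in controls 1 and 2. Under VpR126 medium it was above both controls, and under the other 3 media below both. The means of H2-Aa were 200 ± 134 CPM in conditioned medium (SD, n = 4) and 254 ± 5.26 CPM in control medium (SD, n = 2), a log2 fold change of -0.35 ± 0.53 (adjusted p = 0.61 by edgeR). Its partner H2-Ab1 (chr17:34257689-34269419, plus strand) had 104.9, 101.6, 293.5 and 137.7 CPM in the same 4 media, against 264.5 and 241.3 CPM in the controls. H2-Eb1 (chr17:34305867-34316674, plus strand) had 88.4, 91.6, 289.8 and 124.9 CPM in conditioned medium, against 171.6 and 178.5 CPM in control medium. Both followed the order of H2-Aa, above the controls under VpR126 medium and below them under the other 3. The log2 fold change was -0.67 ± 0.45 for H2-Ab1 and -0.24 ± 0.50 for H2-Eb1 (edgeR adjusted p = 0.26 and 0.72). The alpha chain pseudogene H2-Ea-ps had 0 counts in the 4 conditioned libraries, and in the controls 2 counts in replicate 1 and 0 in replicate 2.

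Cd74, the invariant chain gene on chromosome 18, was the most abundant member per kilobase of exon in each group. It had 297, 348, 1050 and 385 CPM in VpR83, VpR99, VpR126 and VpR2020 medium, against 739.6 and 783 CPM in the controls. As with the classical chains, VpR126 lay above both controls and the other 3 media below. Cd74 averaged 520.0 ± 355 CPM in conditioned medium and 761 ± 30.6 CPM in control medium, with a difference of -0.55 ± 0.53 in log2 fold change (edgeR adjusted p = 0.42). Relative to the summed classical chains, per kilobase, Cd74 stood at 1.5025, 1.78, 1.70 and 1.41 in conditioned medium, against 1.70 and 1.85 in control medium. The groups of this ratio overlapped, with a mean log2 difference of -0.16 (two-sided exact permutation p = 0.40, adjusted p = 0.40 over 3 ratios).

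The result for these 4 genes turned on VpR126. With that library left out, H2-Aa, H2-Ab1, H2-Eb1 and Cd74 were called lower, and 7 members were called in place of 3. Over all genes, 3374 of 15107 tested were then called lower, in place of 2983 of 15141. The log2 fold changes were then -0.91 for H2-Aa, -1.13 for H2-Ab1, -0.77 for H2-Eb1 and -1.14 for Cd74. Their edgeR adjusted p without VpR126 was 0.017 for H2-Aa, 0.0055 for H2-Ab1, 0.021 for H2-Eb1 and 0.0043 for Cd74, the lowest of 13 alternatives, and the highest of these were 0.83, 0.52, 0.94 and 0.65 for the same genes.

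**Figure D2:**
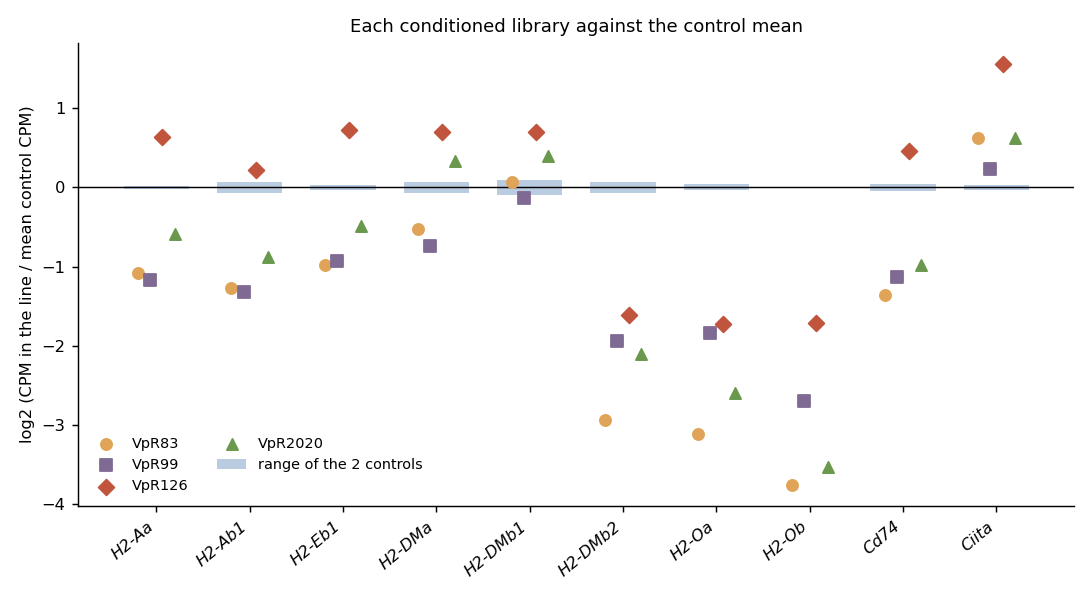
Log2 ratio of each conditioned library's level to the control mean, by gene (1 point per line), with a band from the lower to the higher control, which is too narrow to see for H2-Ob. VpR126 is the highest of the 4 lines for all 10 genes, and lies above the control band for H2-Aa, H2-Ab1, H2-Eb1, Cd74, H2-DMa, H2-DMb1 and Ciita.

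VpR126 medium gave the highest of the 4 conditioned values for 10 of 10 members, while 31.7% of all tested genes were highest in that library. The lowest value lay in VpR83 for 5 members and in VpR99 for 5. The ratio of the VpR126 level to the mean of the other 3 lines was 3.06 for Cd74, 2.96 for H2-Aa and 2.90 for H2-Ob, against 1.57 for H2-DMb2 and 1.48 for H2-DMb1. With 1 library per line, these are descriptions without a test. Relative to the control mean, the log2 level in VpR126 was 0.64 for H2-Aa, 0.73 for H2-Eb1 and 0.46 for Cd74. In the same library the log2 level was -1.61 for H2-DMb2, -1.73 for H2-Oa and -1.72 for H2-Ob, so the line with the highest values stood below both controls for these 3 genes.

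H2-DM is a heterodimer of the H2-DMa product with that of H2-DMb1 or H2-DMb2, beta chain genes that lie side by side. H2-DMa (chr17:34119541-34139101, plus strand) had 52.5, 45.4, 122.6 and 95.8 CPM in VpR83, VpR99, VpR126 and VpR2020 medium, against 72.3 and 79.2 CPM in the controls. Under VpR126 and VpR2020 media it lay above both controls, and under VpR83 and VpR99 media below. Its log2 fold change was 0.06 ± 0.42 (edgeR adjusted p = 0.92), and its sign turned under 6 of 13 alternatives. H2-DMb1 (chr17:34153072-34160230, plus strand) had 35.7, 30.8, 54.9 and 44.8 CPM in conditioned medium, against 31.8 and 36.1 CPM in control medium. The groups of H2-DMb1 overlapped, with a log2 fold change of 0.29 ± 0.25 (adjusted p = 0.38 by edgeR).

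H2-DMb2 (chr17:34143307-34151555, plus strand) was called lower. It had 4.91, 9.79, 12.3 and 8.69 CPM in VpR83, VpR99, VpR126 and VpR2020 medium, against 39.3 and 35.7 CPM in the controls. The highest conditioned value was under the lower control, and the means were 8.91 ± 3.06 CPM in conditioned medium and 37.5 ± 2.54 CPM in control medium, so that the control mean was 4.21 times the conditioned mean. The log2 fold change was -2.07 ± 0.33 (edgeR adjusted p = 0.0045), and the call held under all 13 alternatives, with adjusted p from 6.8e-07 to 0.041. H2-DMb1 over H2-DMb2, per kilobase, was 7.55, 3.28, 4.66 and 5.36 in conditioned medium, against 0.843 and 1.05 in control medium. The groups of the ratio did not overlap, with a mean log2 difference of 2.40 (two-sided exact permutation p = 0.13, the smallest that 4 libraries against 2 allow, adjusted p = 0.20 over 3 ratios).

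The H2-DM beta genes are near copies, and reads may have been split or lost between them. Their longest coding transcripts were 94.6% identical over 1219 aligned bases, and 27.2% of the 50-base windows of H2-DMb1 also stood in H2-DMb2. The sources used here do not say how the counting treated shared reads, so the level of either gene is uncertain. The promoters of the pair, 84.2% identical over 247 aligned bases, are shown because the pair parted in level while sharing their X and Y elements. Each runs from 250 bases before to 50 after the start, 5′ to 3′, from RefSeq on GRCm38.p6, with capitals for the end of the X box (ACNGATG) and the Y box (ATTGG).
H2-DMb1, chr17:34152941-34153240, plus strand: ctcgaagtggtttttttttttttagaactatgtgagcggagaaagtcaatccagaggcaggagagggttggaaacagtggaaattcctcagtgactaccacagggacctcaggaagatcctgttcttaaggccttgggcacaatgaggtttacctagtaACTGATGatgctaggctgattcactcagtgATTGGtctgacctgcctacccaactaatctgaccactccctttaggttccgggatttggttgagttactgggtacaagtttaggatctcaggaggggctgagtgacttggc
H2-DMb2, chr17:34144999-34145298, plus strand: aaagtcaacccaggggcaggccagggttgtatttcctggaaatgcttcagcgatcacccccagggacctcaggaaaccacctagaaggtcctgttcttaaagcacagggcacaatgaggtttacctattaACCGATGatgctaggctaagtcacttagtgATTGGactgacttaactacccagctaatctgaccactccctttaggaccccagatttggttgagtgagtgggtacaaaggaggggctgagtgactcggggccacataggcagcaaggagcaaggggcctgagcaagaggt
In both promoters 23 bases separate the elements. The X box end begins at position -91 in H2-DMb1 and at -120 in H2-DMb2, counted from the start site.

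H2-Oa and H2-Ob encode the alpha and beta chains of H2-O, the H2-DM inhibitor. H2-Oa (chr17:34092340-34095234, plus strand) had 1.28, 3.09, 3.34 and 1.83 CPM in VpR83, VpR99, VpR126 and VpR2020 medium, against 10.8 and 11.3 CPM in the controls. H2-Ob (chr17:34238903-34254414, plus strand) had 4.39, 9.15, 18.1 and 5.14 CPM in conditioned medium, against 59.4 and 59.6 CPM in control medium. For both chains all 4 conditioned libraries were below both controls, as was so for 33.3% of all genes tested. The means of H2-Oa were 2.38 ± 0.989 CPM in conditioned and 11.045 ± 0.397 CPM in control medium, a log2 fold change of -2.20 ± 0.41 (adjusted p = 0.0073 by edgeR). Those of H2-Ob were 9.19 ± 6.28 CPM in conditioned and 59.5 ± 0.164 CPM in control medium, a log2 fold change of -2.69 ± 0.54 (adjusted p = 0.0099 by edgeR). The control mean was thus 4.64 times the conditioned mean for H2-Oa and 6.47 times for H2-Ob.

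Both H2-O calls were lost when either control library was left out, where the single control left is taken to have the spread of the conditioned libraries. Without control 1 or control 2, the edgeR adjusted p was 0.051 and 0.057 for H2-Oa, and 0.058 and 0.059 for H2-Ob, at the same direction and size, while the other alternatives gave calls down to 3.9e-06 and 2.7e-05. In these fits H2-DMb2 was the 1 member still called. Summed H2-O over summed H2-DM transcript, per kilobase, was 0.0440, 0.105, 0.0762 and 0.0379 in conditioned medium, against 0.300 and 0.295 in control medium. Every conditioned library had less inhibitor transcript per H2-DM transcript than both controls, with a mean log2 difference of -2.30 (two-sided exact permutation p = 0.13, the smallest this design allows, adjusted p = 0.20 over 3 ratios).

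Ciita (chromosome 16, 10480059 to 10528418, plus strand) encodes the transactivator of the class II pathway, on which its genes need not all depend alike. It had 16.1, 12.3, 30.8 and 16.1 CPM in VpR83, VpR99, VpR126 and VpR2020 medium, against 10.2 and 10.7 CPM in the controls. All 4 conditioned libraries were above both controls, as was so for 32.0% of all genes tested. Ciita averaged 18.8 ± 8.17 CPM in conditioned medium and 10.4 ± 0.332 CPM in control medium, a log2 fold change of 0.85 ± 0.39 that did not pass (adjusted p = 0.12 by edgeR), nor did it under any of 13 alternatives. The gene has alternative promoters used by different cell types, which counts per gene do not separate, and it overlaps Dexi on the opposite strand.

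**Figure D3:**
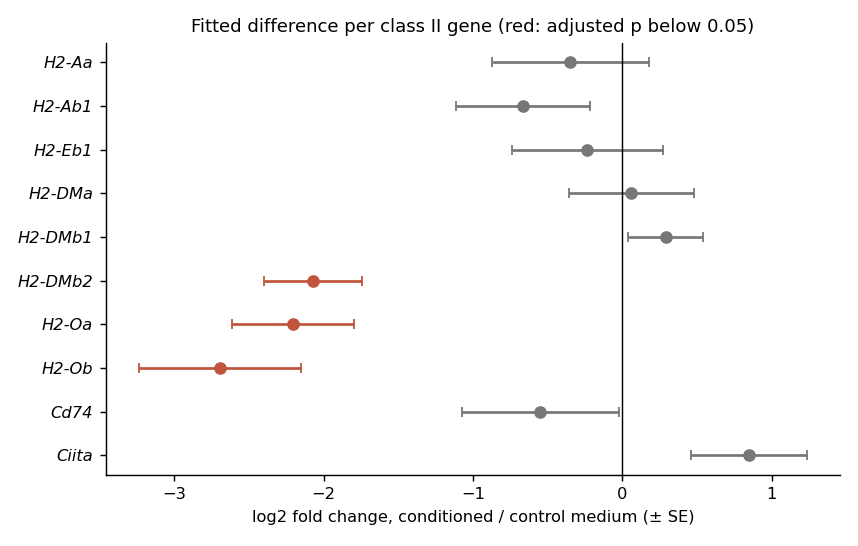
Log2 fold change of conditioned over control medium for each member (points, with bars of 1 SE; n = 4 conditioned and 2 control libraries), red where edgeR's adjusted p was below 0.05. H2-Ob (-2.69), H2-Oa (-2.20) and H2-DMb2 (-2.07) are the called genes, and Ciita (0.85) has the highest value.

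Per kilobase of exon, the order of the mean levels in conditioned medium began with Cd74 at 310 ± 211 CPM per kilobase, followed by H2-Eb1 at 76.5 ± 49.1, H2-Ab1 at 62.1 ± 35.4 and H2-Aa at 52.6 ± 35.2. The neighbouring means among these 3 chains lay within the SD of one another. H2-DMb1 at 24.7 ± 6.31 and H2-DMa at 22.9 ± 10.6 CPM per kilobase followed, also within their SD, then H2-DMb2 at 5.10 ± 1.75. Ciita at 1.97 ± 0.857, H2-Ob at 1.71 ± 1.17 and H2-Oa at 1.69 ± 0.703 CPM per kilobase ended the order without a gap beyond the spread. In control medium the order was Cd74 at 453 ± 18.2 CPM per kilobase, H2-Ab1 at 98.5 ± 6.38, H2-Eb1 at 90.0 ± 2.52 and H2-Aa at 67.0 ± 1.39. There H2-DMa at 22.0 ± 1.41, H2-DMb2 at 21.4 ± 1.45 and H2-DMb1 at 20.2 ± 1.79 CPM per kilobase stood together, above H2-Ob at 11.1 ± 0.031, H2-Oa at 7.85 ± 0.282 and Ciita at 1.09 ± 0.035. H2-O chains thus exceeded Ciita in both controls, while in conditioned medium the means of the 3 genes lay within their SD.

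The promoters of 7 members were in the RefSeq table, with H2-DMa at a pair of starts. On both strands of the 300-base windows, letters of the X box end, ACNGATG, stood in 5 of these members and of the Y box, ATTGG, in 7. Such letters stood in 9.85% and 37.4% of 32851 promoters of the same length. For H2-DMa the Y box letters stood at only 1 of its starts, at -198, so its member count has more chances than a single promoter. In H2-Oa the ACNGATG match began at -137 and the ATTGG match at -43, which is not a pair by the spacing below. The order X box end, 10 to 35 bases, Y box on 1 strand stood in H2-DMb1, H2-DMb2 and H2-Eb1, and in 0.195% of all promoters. The core of a cyclic AMP response element, TGACG, stood in H2-Aa alone of these members and in 20.8% of all promoters. These motifs were chosen after the promoters had been read, and a match of letters is a description. The promoters of H2-Eb1 and H2-Aa, not called in level, are shown beside that of H2-Ob, called lower. Capitals mark letter matches of the same motifs on either strand, which need not be working elements. In H2-Aa they also mark the response element core, whose matches on the opposite strands overlap.
H2-Eb1, chr17:34305617-34305916, plus strand: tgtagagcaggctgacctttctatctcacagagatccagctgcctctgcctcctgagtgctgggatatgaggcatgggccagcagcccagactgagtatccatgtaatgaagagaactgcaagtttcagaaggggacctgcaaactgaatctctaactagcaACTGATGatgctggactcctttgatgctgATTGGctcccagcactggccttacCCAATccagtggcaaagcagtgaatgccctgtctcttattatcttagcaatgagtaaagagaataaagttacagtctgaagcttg
H2-Aa, chr17:34287774-34288073, minus strand: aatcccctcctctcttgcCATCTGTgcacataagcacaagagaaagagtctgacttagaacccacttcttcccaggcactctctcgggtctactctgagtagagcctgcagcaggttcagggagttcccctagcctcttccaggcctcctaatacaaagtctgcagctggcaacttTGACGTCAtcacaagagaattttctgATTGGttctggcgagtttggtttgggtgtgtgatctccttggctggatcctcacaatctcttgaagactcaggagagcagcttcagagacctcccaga
H2-Ob, chr17:34238655-34238954, plus strand: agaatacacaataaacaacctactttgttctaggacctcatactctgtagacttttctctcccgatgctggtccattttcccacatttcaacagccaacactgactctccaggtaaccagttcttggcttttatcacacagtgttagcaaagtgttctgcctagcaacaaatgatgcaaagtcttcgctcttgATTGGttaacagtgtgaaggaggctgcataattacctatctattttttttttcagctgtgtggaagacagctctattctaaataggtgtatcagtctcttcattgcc
H2-Eb1 held the pair with 22 bases between and a further Y box on the opposite strand. H2-Ob held a Y box at -57 and no match of ACNGATG. These fixed letters miss variants, so this does not show that H2-Ob lacks an X box. In H2-Aa the match of ACNGATG lay on the opposite strand, from -232 to -226, and formed no pair with the Y box. It does not mark where the X box of H2-Aa lies. In H2-Aa the Y box began at -48 and the response element core at -74.

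Of the 7 factors that bind the X and Y boxes, 1 was called higher and 2 lower by edgeR, together 42.9%, near the 42.2% of all genes tested that were called. Nfya, a subunit of the Y box factor NF-Y, had 125.7, 119.5, 112.1 and 120.4 CPM in VpR83, VpR99, VpR126 and VpR2020 medium, against 89.6 and 93.5 CPM in the controls (log2 fold change 0.38 ± 0.12, adjusted p = 0.046). Its partner subunit Nfyb had 23.8, 32.7, 19.5 and 22.1 CPM in conditioned medium, against 58.5 and 48.7 CPM in control medium (-1.13 ± 0.23, edgeR adjusted p = 0.0096). Rfxap, a subunit of the X box factor RFX, had 13.3, 12.9, 10.3 and 10.7 CPM in conditioned medium, against 18.6 and 16.4 CPM in control medium (-0.56 ± 0.19, edgeR adjusted p = 0.049). Of the 7 factors, called or not, 4 lay wholly lower, 2 lay wholly higher and 1, Rfx5, overlapped, where 33.3% of all genes tested lay wholly lower and 32.0% wholly higher. The log2 fold changes of the other factors were 0.42 ± 0.31 for Rfx5, -0.45 ± 0.17 for Rfxank, -0.36 ± 0.14 for Nfyc and 0.21 ± 0.12 for Creb1, none of them called. The calls of Nfya and Rfxap were lost under 9 and 8 of 13 alternatives, with adjusted p up to 0.42 and 0.27, and that of Nfyb without control 1 or 2 (0.084 and 0.053). The list held 0 higher and 0 lower genes without either control, and 1 lower without any 1 conditioned library.

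Interferon gamma is the known inducer of CIITA, through its receptor and JAK kinases. Of 8 genes of this route, 2 were called higher and 1 lower by edgeR, together 37.5%, against 42.2% of all genes tested. Ifng, the ligand gene, had 0.0366, 0.0649, 0.0422 and 0.166 CPM in VpR83, VpR99, VpR126 and VpR2020 medium, against 3.13 and 0.799 CPM in the controls (log2 fold change -4.76 ± 0.73, edgeR adjusted p = 0.0039). These were 1, 8, 1 and 3 counts, against 94 and 17 counts, so the size of its fold change rests on few counts. Ifngr2, a receptor chain, had 144.6, 136.0, 204.3 and 176.5 CPM in conditioned medium, against 66.0 and 97.4 CPM in control medium (1.02 ± 0.25, edgeR adjusted p = 0.018). The kinase gene Jak1 had 311, 345, 409 and 345 CPM in conditioned medium, against 228 and 225 CPM in control medium (0.64 ± 0.16, edgeR adjusted p = 0.022). Of the 8 genes, called or not, 1 lay wholly lower, 3 lay wholly higher and 4 overlapped, where 33.3% of all genes tested lay wholly lower and 32.0% wholly higher. The other receptor chain gene, Ifngr1, had 207, 202, 329 and 245 CPM in conditioned medium, against 192 and 161 CPM in control medium, and was not called (0.48 ± 0.24, edgeR adjusted p = 0.15). Irf1, an interferon-induced transcription factor gene, had 61.5, 81.9, 207 and 97.1 CPM in conditioned medium, against 71.0 and 80.1 CPM in control medium, and was not called (0.57 ± 0.49, edgeR adjusted p = 0.37). VpR126 was the highest conditioned library for Irf1 and for every other gene of the route except Ifng, as for every member and for 31.7% of all tested genes. The kinase gene Jak2 and the transcription factor genes Irf8 and Spi1 overlapped between the groups and were not called, with log2 fold changes of 0.17 ± 0.24, -0.05 ± 0.21 and 0.14 ± 0.19, each of which changed sign under some alternative. Without control 1 no gene of the route was called higher, and without control 2 Ifngr2 alone was. The edgeR adjusted p of Ifngr2 without control 1 was 0.14 and that of Jak1 was 0.13 without either control, both the highest over the alternatives.

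Genes that act on the invariant chain and on antigen in endosomes rose together: 8 of 8 were called higher, against a background of 22.5%, with a median log2 fold change of 3.65. Ctss, the cathepsin that trims the invariant chain in antigen-presenting cells, had 1454, 2011, 2436 and 1781 CPM in VpR83, VpR99, VpR126 and VpR2020 medium, against 252 and 259 CPM in the controls (2.91 ± 0.28, edgeR adjusted p = 0.0011). Lgmn, the asparaginyl endopeptidase legumain, had 1744, 1308, 1586 and 2542 CPM in conditioned medium, against 46.0 and 42.9 CPM in control medium (5.34 ± 0.38, edgeR adjusted p = 0.00049). No conditioned library came near a control in either gene. The log2 fold changes of the other cathepsin genes were 4.86 ± 0.62 for Ctsl, 4.64 ± 0.35 for Ctsb and 4.38 ± 0.39 for Ctsd. Ifi30, a thiol reductase that opens disulfide bonds of antigens, rose by a log2 fold change of 1.25 ± 0.30, Sppl2a, a protease that clears the invariant chain remnant, by 1.65 ± 0.29, and the endosomal tetraspanin gene Cd63 by 0.97 ± 0.25. Without control 1, 6 of the 8 were called, and without control 2, 5. Calls of Ifi30 and Cd63 were lost without either control (adjusted p up to 0.13 and 0.15) and that of Sppl2a without control 2 (0.065).

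Of 8 genes that turn class II molecules over or repress the pathway, edgeR called 4 higher, against a background of 22.5% of all genes tested. March1, a ubiquitin ligase that removes class II from the surface, had 60.3, 85.5, 203 and 89.8 CPM in VpR83, VpR99, VpR126 and VpR2020 medium, against 35.7 and 34.96 CPM in the controls (log2 fold change 1.63 ± 0.51, edgeR adjusted p = 0.041). Prdm1, which encodes the repressor Blimp-1 that silences Ciita in plasma cells, had 19.5, 11.3, 45.5 and 39.8 CPM in conditioned medium, against 4.599 and 1.79 CPM in control medium (3.17 ± 0.75, edgeR adjusted p = 0.017). March8, a ligase related to March1, and the cytokine gene Tgfb1 had log2 fold changes of 0.78 ± 0.23 and 0.76 ± 0.19 (edgeR adjusted p = 0.036 and 0.019). In these 4 genes every conditioned library was above both controls, as was so for 32.0% of all genes tested. Cd83, whose product opposes the March1 ligase, overlapped between the groups, with 39.9, 9.48, 63.7 and 79.2 CPM in conditioned medium and 36.6 and 9.87 CPM in control medium. Il10 had 0.403, 1.78, 10.2 and 0.498 CPM in conditioned medium, against 0.533 and 0.188 CPM in control medium, and was not called by edgeR (3.11 ± 1.60, adjusted p = 0.16). Without VpR2020, 2 genes of the list were called higher, and without either control none was. Over the alternatives the adjusted p reached 0.18 for March1, 0.20 for March8, 0.16 for Tgfb1 and 0.11 for Prdm1.

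**Figure D4:**
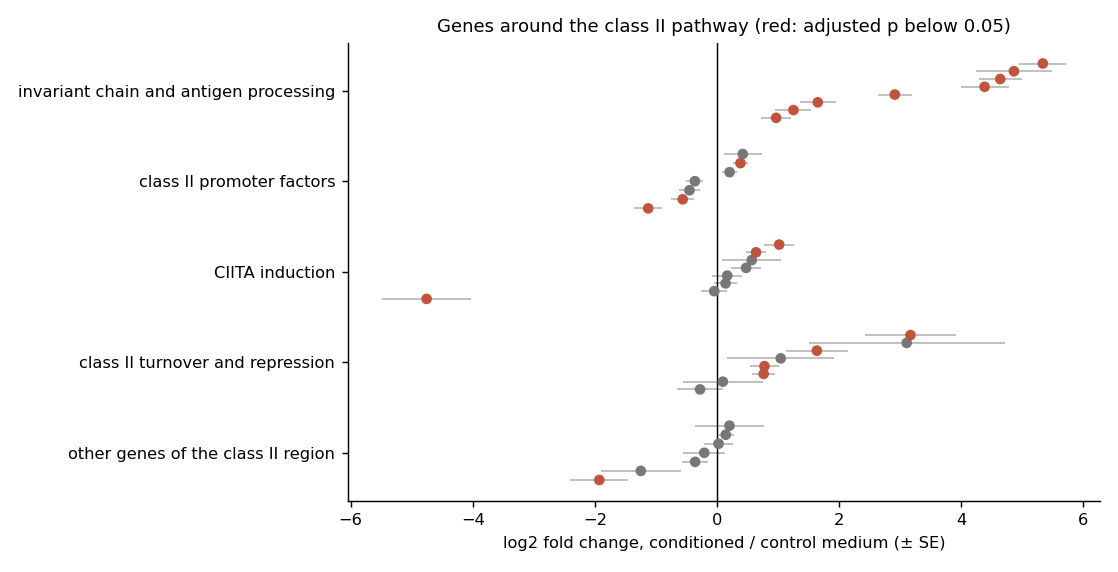
Log2 fold change of conditioned over control medium for each tested gene of 5 lists of related genes (points, with bars of 1 SE), red where edgeR's adjusted p was below 0.05. The 8 processing genes all lie above 0, from 0.97 to 5.34, and Ifng, with at most 8 counts in any conditioned library, lies lowest, at -4.76.

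Of 8 further genes in the class II region of chromosome 17, 7 were tested and 1 was called, or 14.3% against 42.2% of all genes tested. It was Btnl2, a butyrophilin-like gene. Btnl2 had 0.366, 0.373, 0.929 and 0.719 CPM in VpR83, VpR99, VpR126 and VpR2020 medium, against 2.23 and 2.21 CPM in the controls (-1.93 ± 0.47, edgeR adjusted p = 0.018). H2-Eb2, a relative of H2-Eb1 that shared no 50-base window with it, had 0.586, 1.48, 2.75 and 0.608 CPM in conditioned medium, against 3.13 and 3.34 CPM in control medium, and was not called (-1.25 ± 0.65, edgeR adjusted p = 0.16). Of the 8 genes, 3 lay below both controls in all 4 conditioned libraries, 1 lay above, and the other 4 overlapped or were at 0. Over all genes tested the shares were 33.3% below and 32.0% above. Without either control no gene of this list was called (adjusted p of Btnl2 0.10 and 0.097), and without VpR126 2 were.

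Markers of cells known to carry class II differed between the groups in both directions. Of 14 B cell markers 9 were called lower by edgeR, against a background of 19.7% of all genes tested. Their summed level was 329 to 1039 CPM in conditioned medium, against 3179 to 3432 CPM in control medium, with none at 0 throughout a group. Ighm, the heavy chain gene of IgM, had 149, 251, 431 and 194 CPM in VpR83, VpR99, VpR126 and VpR2020 medium, against 1752 and 1799 CPM in the controls. Cd79a, a signalling chain of the B cell receptor, had 6.41, 37.2, 67.1 and 13.4 CPM in conditioned medium, against 259 and 332 CPM in control medium. The sum was lower in every conditioned library than in both controls, and highest among the conditioned libraries in VpR126. Gene by gene, 12 of the 14 markers lay below both controls in all 4 conditioned libraries, as did 33.3% of all genes tested, and 2 overlapped. Without either control 3 B cell markers were called lower, and without VpR126 13 were.

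The H2-O chains were set against that sum. Per 1000 CPM of B cell markers, H2-Ob stood at 13.3, 16.0, 17.4 and 13.2 CPM in VpR83, VpR99, VpR126 and VpR2020 medium, against 18.7 and 17.4 CPM in the controls. By the same measure H2-Oa stood at 3.89, 5.397, 3.21 and 4.70 CPM in conditioned medium, against 3.39 and 3.30 CPM in control medium. H2-DMb2 stood at 14.9, 17.1, 11.8 and 22.4 CPM in conditioned medium, against 12.4 and 10.4 CPM in control medium. On this scale the groups of all 3 genes overlapped, in each only through VpR126. For H2-Ob the overlap was 17.39 CPM in VpR126 against 17.36 CPM in control 2. Cd74 stood at 903, 608, 1010 and 991 CPM per 1000 CPM of B cell markers in conditioned medium, against 233 and 228 CPM in control medium, and H2-DMb1 at 108, 53.9, 52.8 and 115 CPM in conditioned medium, against 10.01 and 10.5 CPM in control medium. Ciita stood at 48.9, 21.4, 29.6 and 41.5 CPM in conditioned medium, against 3.21 and 3.11 CPM in control medium. For these 3 genes every conditioned library was above both controls. The same was so for H2-Aa, H2-Ab1, H2-Eb1 and H2-DMa, and thus for every member but H2-DMb2, H2-Oa and H2-Ob. The share of all genes on this scale was not computed. Since the B cell sum was itself lower in every conditioned library, this scale raises any gene that fell less than the sum. The part of the B cell markers in the results was not tested.

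**Figure D5:**
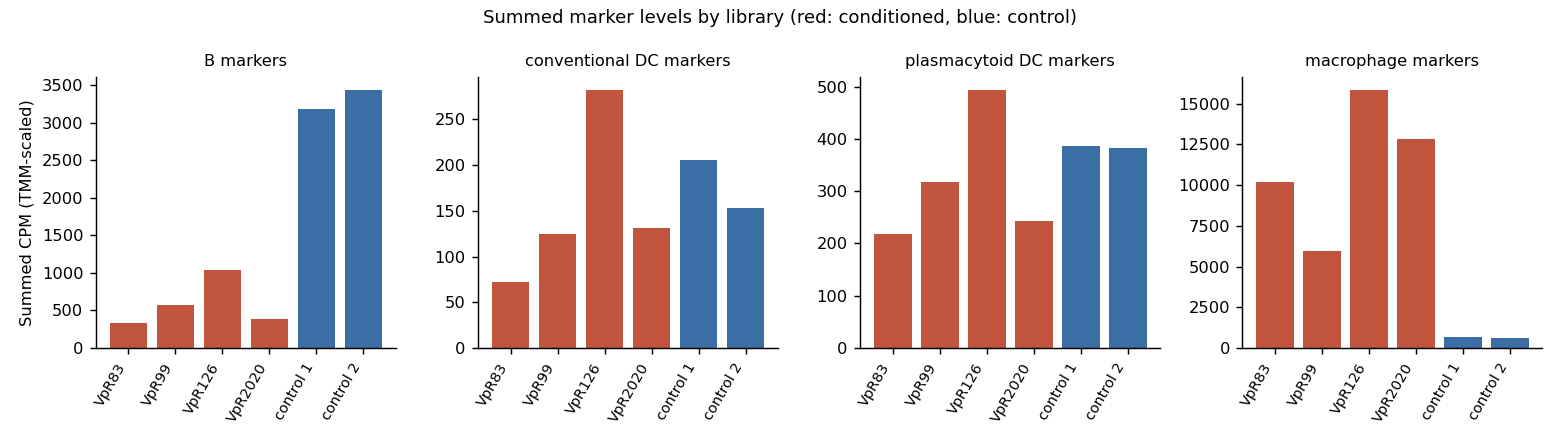
Summed level of the marker genes of B cells, conventional and plasmacytoid dendritic cells and macrophages in each library, as bars of TMM-scaled CPM from 0, with conditioned medium left of control medium. B cell sums are lower and macrophage sums higher in all 4 conditioned libraries than in both controls.

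Of 12 macrophage markers 10 were called higher and 1 lower, Vcam1, by edgeR, against 22.5% and 19.7% of all genes tested. Their summed level was 5960 to 15834 CPM in conditioned medium, against 590 to 647 CPM in control medium, with none at 0 throughout a group. Csf1r, the receptor of the macrophage growth factor, had 1835, 982, 4742 and 2656 CPM in VpR83, VpR99, VpR126 and VpR2020 medium, against 166 and 169 CPM in the controls. Among the conditioned libraries the sum was highest in VpR126, as were all 10 members and 31.7% of all tested genes. The B cell sum and both dendritic cell sums were also highest there among the conditioned libraries, so this order is not particular to macrophage markers. Of 10 markers of conventional dendritic cells 4 were called lower, against 19.7% of all genes tested, with a summed level of 72.3 to 282 CPM in conditioned medium and 153 to 206 CPM in control medium. Clec10a, a lectin gene, had 24.5, 24.7, 127 and 67.8 CPM in conditioned medium, against 18.1 and 19.0 CPM in control medium, and was not called by edgeR (1.71 ± 0.76, adjusted p = 0.11). Itgax, the integrin chain CD11c, which macrophages share, had 16.9, 66.7, 78.7 and 34.8 CPM in conditioned medium, against 17.9 and 18.5 CPM in control medium, and was not called by edgeR (adjusted p = 0.10). The other 8 markers summed to 28.5 to 76.5 CPM in conditioned medium and 115 to 170 CPM in control medium, a split chosen after the values were seen. Clec10a and Itgax had the highest conditioned means of the list, so leaving them out itself lowers the conditioned sum. No conclusion on these cells is drawn from it. Among these Dpp4, a surface peptidase gene, had 12.1, 15.5, 24.7 and 10.8 CPM in conditioned medium, against 44.8 and 36.2 CPM in control medium (-1.36 ± 0.34, edgeR adjusted p = 0.020). Flt3, the growth factor receptor of dendritic cell precursors, was named after its values were seen and had 6.52, 2.12, 5.79 and 4.48 CPM in conditioned medium, against 31.8 and 28.3 CPM in control medium. By gene, 5 of the 10 markers lay below both controls in all 4 conditioned libraries and 2 above, Clec10a and Batf3, against 33.3% and 32.0% of all genes tested. The other 3 overlapped. Batf3, among the 8 markers of that lower sum, was named after its values were seen. It had 3.26, 2.69, 9.42 and 5.20 CPM in conditioned medium, against 1.73 and 1.08 CPM in control medium, and was not called by edgeR (1.86 ± 0.62, adjusted p = 0.052).

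Of 8 plasmacytoid dendritic cell markers 6 were called lower and 2 higher, against 19.7% and 22.5% of all genes tested. Their summed levels were 219 to 493 CPM in conditioned medium and 382 to 387 CPM in control medium. The 2 called higher were the most abundant of the list and carried most of the conditioned sum. Bst2, a membrane protein gene that interferons also induce, had 107, 210, 331 and 119 CPM in VpR83, VpR99, VpR126 and VpR2020 medium, against 58.8 and 66.5 CPM in the controls (1.61 ± 0.51, edgeR adjusted p = 0.042). Tcf4, a transcription factor gene, had 93.9, 65.2, 105 and 101 CPM in conditioned medium, against 57.4 and 49.2 CPM in control medium (0.77 ± 0.22, edgeR adjusted p = 0.032). The other 6 markers, set apart after the values were seen, summed to 17.4 to 58.2 CPM in conditioned medium and 266 to 271 CPM in control medium. Since the 2 genes left out were those called higher, the choice itself lowers the conditioned sum, and no conclusion on these cells is drawn from it. Among these 6 was Siglech, a lectin gene also named after its values were seen, with 1.17, 1.05, 4.22 and 1.16 CPM in conditioned medium, against 55.2 and 50.8 CPM in control medium. Each of the 8 markers lay on 1 side of both controls in all 4 conditioned libraries, 6 below and 2 above, against 33.3% and 32.0% of all genes tested. No marker of either dendritic cell list was at 0 throughout a group. Without either control, 2 conventional dendritic cell markers were called lower, none of the plasmacytoid markers higher, 8 of the macrophage markers higher and none lower. Without VpR126, 6 conventional dendritic cell markers and 2 macrophage markers were called lower. The call of Bst2 was lost without VpR99, and that of Tcf4 without VpR83 or VpR2020, and both were lost without either control (adjusted p up to 0.20 and 0.18). The part of these markers in the class II results was not tested.

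Markers of other marrow cells were present in the controls. Summed neutrophil markers were 3362 to 17226 CPM in conditioned medium and 81401 to 88957 CPM in control medium, and summed erythroid markers 76.8 to 386 CPM in conditioned medium and 2103 to 4668 CPM in control medium. Summed T and NK cell markers were 5.14 to 19.0 CPM in conditioned medium and 155 to 170 CPM in control medium, and stromal and endothelial markers 19.97 to 65.5 CPM in conditioned medium and 108 to 110 CPM in control medium. The summed monocyte markers overlapped, at 1277 to 3077 CPM in conditioned medium and 1516 to 2011 CPM in control medium. Gene by gene, 4 of the 8 lay below both controls in all 4 conditioned libraries and 3 above, against 33.3% and 32.0% of all genes tested. F13a1, the clotting factor XIII chain gene, had 1407, 1765, 717 and 568 CPM in VpR83, VpR99, VpR126 and VpR2020 medium, against 394 and 385 CPM in the controls. Ly6c2, the classical monocyte marker gene, had 120, 519, 291 and 129 CPM in conditioned medium, against 746 and 720 CPM in control medium, and neither was called by edgeR (adjusted p = 0.052 and 0.086). Of the 9 markers of renal or epithelial tumour cells, Pax2, Krt8 and Krt19 had 0 counts in every conditioned library. Others were detected, among them Lcn2, which neutrophils also express, at 189, 1031, 451 and 247 CPM in conditioned medium and 3852 and 4257 CPM in control medium. Cdh1, the E-cadherin gene, had 7.21, 17.3, 3.72 and 3.15 CPM in conditioned medium, against 16.7 and 13.3 CPM in control medium, so VpR99 lay above both controls.

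The 8 genes nearest in pattern to H2-Aa, H2-Ab1, H2-Eb1 and Cd74 were sought among 10210 genes with a mean of at least 5 CPM, by Euclidean distance of centred log2 CPM over the 6 libraries. They were Mir5125 at 0.296, Zfp579 at 0.362, Prdx5 at 0.373, Tbc1d8 at 0.449, Dusp28 at 0.457, Matk at 0.463, Cd1d1 at 0.479 and 4933439C10Rik at 0.516, where the median over the ranked genes was 1.96. Cd1d1, which encodes an MHC class I-like molecule that presents lipids, had 9.23, 8.399, 39.8 and 11.3 CPM in VpR83, VpR99, VpR126 and VpR2020 medium, against 22.7 and 22.4 CPM in the controls. Mir5125 lies inside Srrm2 on the same strand, so its reads may be those of the host. Among the members, the distance was 0.173 for H2-Aa, 0.255 for H2-Eb1 and Cd74, and 0.268 for H2-Ab1, the 4 genes that set the pattern. It was 0.943 for H2-DMa, 1.33 for H2-DMb1, 1.70 for Ciita, 1.999 for H2-DMb2, 2.24 for H2-Oa and 2.80 for H2-Ob. The genes called lower lay beyond the median distance, H2-DMb2 only just. The distance uses the same 6 libraries and grows with the size of a group difference, so it is no separate support for the calls. H2-DMa also overlaps Brd2 on the opposite strand, H2-Eb1 overlaps Gm20513 and H2-Oa overlaps BC051537, and without the strand setting of the counting their reads cannot be told apart from those of the partner.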

How the data were processed

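RNA of mouse bone marrow was sequenced from 6 libraries made with a stranded TruSeq kit, per the labels' protocols. The authors deposited read counts for each Ensembl gene, without normalization. The submitters' processing notes name Trimmomatic 0.38, STAR 2.5.2b and GRCm38, while the annotation, the counting program and its strand option are not given in the sources used. All 6 count columns were mapped to samples by name, and 45143 of 45706 identifiers matched GENCODE M21, which gave symbols, coordinates and exon lengths. The table was analysed whole in R 4.3.3 with edgeR 4.0.16, with filterByExpr, TMM scaling and a robust quasi-likelihood test with medium as the only term, two-sided, and Benjamini-Hochberg adjustment. The script was tested on simulated data with 200 changed genes. Alternatives were DESeq2 1.42.0, limma 3.58.1 (voom), other scalings, no low-count filter, VpR99 thinned to 25714176 counts, and leaving out each library. The 3 ratios were compared by exact permutation. The members, the lists of related genes and markers, and the tests were chosen with earlier results of these data known. Named genes were all members, members of pathway lists of at most 9 genes, up to 4 genes per marker list by mean CPM (with Flt3, Batf3, Siglech, Vcam1 and markers counted at 0 named besides, after their values were seen), and the 8 genes nearest in pattern to the classical chains and Cd74. The libraries differed beyond counting noise, with a chi-square per degree of freedom of at least 27.9 in every pair (genes with 10 or more counts). 1 gene was left out of the CIITA induction list and is not reported here.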

Additional observations from a re-analysis of the deposited data

Results flagged for a closer look

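Of 71 groups of 4 conditioned libraries tested, in 6 genes a single library stood apart by Dixon's measure, the gap to the nearest library over the whole range above its 95% critical value, and chance gives about 1 such group in 20. Cd74 was highest in VpR126 with a gap share of 0.884. Il10, Tgfb1 and Siglech were also highest in VpR126, at 0.860, 0.891 and 0.963. Ctsl was highest in VpR99 at 0.845, with 2770 CPM against 950 to 1232 CPM in the other conditioned libraries. Ifi30 was highest in VpR2020 at 0.854, with 523 CPM against 292 to 326 CPM in the others.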

How the results depend on the processing

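H2-DMb2 was called lower under all 13 alternatives, and H2-Oa and H2-Ob under 11 each. No member was called higher under any of them. Leaving out 1 library at a time moved the count of genes called higher from 1283 to 3657 and lower from 918 to 3374, and that of members called lower from 1 to 7. The same counts ran over 0 to 1 higher and 0 to 1 lower for promoter factors, 0 to 2 higher for the induction route, 5 to 8 higher for processing, 0 to 4 higher for turnover, 0 to 2 lower for region genes, 3 to 13 lower for B cell markers, 0 to 1 higher and 2 to 6 lower for conventional dendritic cell markers, 0 to 2 higher for plasmacytoid markers, and 0 to 2 lower for macrophage markers. Promoter factors called higher numbered 0 under RLE scaling, library totals, upper-quartile scaling and no filter. Those called lower numbered 4 under library totals and upper-quartile scaling, and 1 under limma voom and no filter. With library totals or upper-quartile scaling, the induction route and the turnover list held 1 higher gene each, and the plasmacytoid list 0. Without the filter, B cell markers called lower numbered 5, conventional dendritic cell markers called higher 1, plasmacytoid markers called higher 1 and macrophage markers called lower 0, and DESeq2 called 3 conventional dendritic cell markers higher. The log2 fold change of H2-DMa changed sign, to -0.19 with library totals, -0.059 by limma voom and -0.14 with upper-quartile scaling, and ran from -0.22 to 0.26 with 1 library left out, below 0 without VpR126, VpR2020 or control 1. With library totals and upper-quartile scaling those of Jak2 were -0.077 and -0.040, and those of Spi1 -0.107 and -0.069, and that of Irf8 ran from -0.12 to 0.071 with 1 library left out. Library totals and upper-quartile scaling shifted the median over all genes, in log2 fold change, to -0.26 and -0.22, in place of -0.01, and the higher share of calls to 38.6% and 40.02%, in place of 53.3%. The 3 ratios kept their sign throughout. The cause of these moves was not tested. No paired analysis was possible because the conditioned labels carry no replicate number that could pair with those of the controls. Precision is limited by 2 controls and 1 library per line.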
